A study of Homo sapiens with 17 samples.

Results

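The genes described are 10 that write, erase or read methylation of lysine 36 of histone H3 (H3K36), chosen by name from the RefSeq annotation of hg38, where 38151 protein-coding and lncRNA genes were listed. They are 5 writers (SETD2, NSD1, NSD2, NSD3 and ASH1L), 3 erasers (KDM2A, KDM4B and KDM8) and 2 readers (PSIP1 and PHF1). All 10 were found in the annotation. For each gene the measurements were the percent of the gene body under H3K36me3 peaks, and the percent of the window within 1 kb of the gene start under peaks of the histone variant H2AZ and of the acetyl marks H3K27ac and H3K9ac.

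H3K36 methylation is laid down along genes as they are transcribed. SETD2 travels with elongating RNA polymerase II and is the enzyme that adds the third methyl group in mammalian cells, whereas NSD1, NSD2, NSD3 and ASH1L add up to a pair of them. KDM2A removes methyl groups from H3K36me2, KDM4B acts on H3K9 and, more weakly, on H3K36, and KDM8 has been described as an H3K36me2 demethylase. PSIP1 (LEDGF) binds methylated H3K36 through its PWWP domain, and PHF1, an accessory subunit of the Polycomb complex PRC2, binds H3K36me3 through its Tudor domain. H3K36me3 therefore marks the bodies of transcribed genes, while active starts carry H2AZ and acetylated histone H3.

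The cells were HCC1954, an established HER2-positive breast cancer line, and every library came from cells transfected with antisense oligonucleotides and fixed 72 h later. The arms are named Si1235 and NC1235. Neither name is explained in the labels; LINC01235, a long non-coding RNA, appears in the title of the series. Each arm had 2 libraries of H2AZ, H3K27ac and H3K36me3 and 1 of H3K9ac, and no label ties the replicates to separate cultures, so p-values cover the library-to-library spread alone, possibly a technical one. Of 8 markers of breast epithelium, 8 had at least 5% H3K27ac cover at their start and 7 had H3K36me3 over their body, with KRT19 at 0 for H3K36me3, whereas of the markers of immune, endothelial and fibroblast cells 3 of 6 and 1 of 8 did. The summed H3K27ac cover of those other markers was 80.5 and 105.1 points in Si1235 and 65.1 and 41.9 points in NC1235, carried by CD3E, CDH5 and COL1A1, with PTPRC, PECAM1 and COL1A2 at 0; the part of this in the H3K27ac results was not tested. Lists held 42759 to 81320 peaks for the replicated marks. Read depth is not stated. A background level was solved from weak peaks of the replicated marks, except in the 2 NC1235 H3K27ac lists, which gave none. It was 1.90 to 2.33 reads per position in replicate 1 and 0.788 to 1.65 in replicate 2. By this indirect measure the second replicates with a value stand on fewer reads. The 2 NC1235 H3K27ac lists gave whole read numbers for only 0.733% and 12.7% of the weak peaks, against 100% in every other list, so their pileups were taken as scaled, and that difference in the lists cannot be told apart from the arm in any H3K27ac comparison.

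The promoter sequences of 9 of the 10 genes, at 15 annotated starts, were matched in the RefSeq table of GRCh38.p14; each runs from 250 bases before to 50 bases after a start. The starts that the results turn on are printed on the strand of the gene, with each CG dinucleotide in capitals. CG was the one motif counted, and it reads the same on both strands. The median over 35116 promoters was 14 CG. The NSD1 pair shows an outermost start without any of the marks and a start 2338 bp further in that carried all of them. The KDM2A pair shows the outermost start and an internal start 120751 bp downstream. The KDM4B and PSIP1 promoters belong to the members with the most negative differences (Si1235 minus NC1235) in H3K27ac at the outermost starts and in H3K36me3 over the body.
NSD1 outermost start, chr5:177131548-177131847, plus strand: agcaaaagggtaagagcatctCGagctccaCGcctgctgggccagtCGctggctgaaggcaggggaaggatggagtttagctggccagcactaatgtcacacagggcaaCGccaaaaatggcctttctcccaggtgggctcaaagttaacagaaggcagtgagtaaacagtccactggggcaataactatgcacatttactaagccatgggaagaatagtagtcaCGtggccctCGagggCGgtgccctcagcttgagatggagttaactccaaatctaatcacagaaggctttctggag
NSD1 inner start, chr5:177133886-177134185, plus strand: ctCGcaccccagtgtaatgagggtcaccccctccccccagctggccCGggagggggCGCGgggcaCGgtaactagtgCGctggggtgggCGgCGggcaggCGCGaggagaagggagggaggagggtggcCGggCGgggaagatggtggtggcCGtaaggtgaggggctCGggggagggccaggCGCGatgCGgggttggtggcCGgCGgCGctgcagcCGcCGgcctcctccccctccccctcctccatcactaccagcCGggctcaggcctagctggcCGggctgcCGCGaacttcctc
KDM2A outermost start, chr11:67119013-67119312, plus strand: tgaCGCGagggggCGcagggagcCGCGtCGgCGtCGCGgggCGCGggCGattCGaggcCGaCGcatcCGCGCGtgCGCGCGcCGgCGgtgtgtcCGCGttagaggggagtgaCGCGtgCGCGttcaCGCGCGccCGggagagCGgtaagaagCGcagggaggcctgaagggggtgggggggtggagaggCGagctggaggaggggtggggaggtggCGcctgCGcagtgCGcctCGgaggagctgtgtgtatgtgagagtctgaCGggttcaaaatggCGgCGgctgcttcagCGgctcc
KDM2A internal start, chr11:67239764-67240063, plus strand: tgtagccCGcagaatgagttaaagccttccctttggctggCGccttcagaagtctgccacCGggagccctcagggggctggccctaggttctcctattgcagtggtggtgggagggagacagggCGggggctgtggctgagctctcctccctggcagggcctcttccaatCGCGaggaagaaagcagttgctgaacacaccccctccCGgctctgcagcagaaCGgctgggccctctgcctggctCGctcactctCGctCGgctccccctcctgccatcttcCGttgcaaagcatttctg
KDM4B start, chr19:4968863-4969162, plus strand: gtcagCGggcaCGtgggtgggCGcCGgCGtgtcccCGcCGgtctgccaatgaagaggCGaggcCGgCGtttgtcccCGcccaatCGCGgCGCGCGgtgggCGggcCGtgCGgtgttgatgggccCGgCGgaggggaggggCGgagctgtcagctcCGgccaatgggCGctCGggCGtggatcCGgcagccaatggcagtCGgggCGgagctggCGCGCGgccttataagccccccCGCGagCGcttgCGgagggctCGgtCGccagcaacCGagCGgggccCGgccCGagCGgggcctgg
PSIP1 start, chr9:15510921-15511220, minus strand: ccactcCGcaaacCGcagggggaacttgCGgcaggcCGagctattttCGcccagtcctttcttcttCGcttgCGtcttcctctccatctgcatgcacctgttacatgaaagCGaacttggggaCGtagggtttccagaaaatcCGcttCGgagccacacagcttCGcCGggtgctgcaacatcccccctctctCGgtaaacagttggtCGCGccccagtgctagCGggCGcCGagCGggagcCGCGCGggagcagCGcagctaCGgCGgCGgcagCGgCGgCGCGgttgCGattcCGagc

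The outermost NSD1 promoter held 7 CG, and 63.2% of all promoters held at least as many. The inner NSD1 promoter held 26, a count reached by 30.1% of promoters. The printed NSD1 outermost bases were not covered by H2AZ, H3K27ac or H3K9ac peaks in any library, and the inner ones were wholly covered by all 3. The KDM2A outermost promoter held 44 CG, the KDM4B promoter 43 and the PSIP1 promoter 33, counts reached by 4.19%, 4.98% and 17.2% of promoters. The internal KDM2A promoter held 12, fewer than the median. The richest in the family was NSD2, with 63 CG in its promoter, a count reached by 0.0456% of promoters.

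Over the gene bodies, H3K36me3 cover in the family ranged from 0% to 78.7% of a gene. By mean cover NSD1, PSIP1 and NSD2 led in Si1235, and PSIP1, NSD1 and NSD2 in NC1235; the genes below them, PHF1, KDM2A, SETD2, ASH1L, NSD3, KDM4B and KDM8, had the same order in both arms, although within an arm the libraries of some neighbours overlapped: NSD2 and PHF1, PHF1 and KDM2A, and SETD2 and ASH1L in both arms, PSIP1 and NSD2 in Si1235, and PSIP1 and NSD1 in NC1235. None of the 9 genes that could be tested was called between Si1235 and NC1235 by limma with Benjamini-Hochberg adjustment over all 8351 genes, in either direction; the background was 0.00% of genes called higher and 0.00% called lower. At an unadjusted p under 0.05, 1 of the 9 (PSIP1) and 7.94% of all tested genes passed. The arms did not overlap for 1 of 9 members, lower in Si1235, beside 13.7% of all genes lower, 20.3% higher and 34.0% in either direction. The median difference over the 9 was -1.31 percentage points (Si1235 minus NC1235), and over all tested genes 0.69. With 2 libraries against 2, an exact permutation test cannot go below a p of 0.3333.

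**Figure D1:**
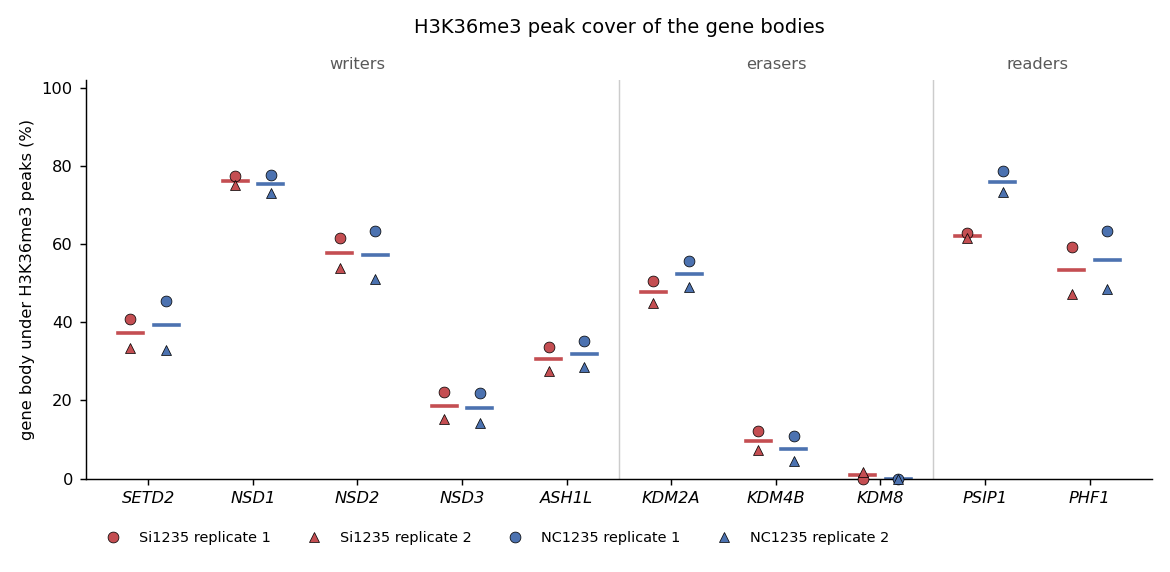
Percent of each gene body under H3K36me3 peaks (y axis) for the 10 genes (x axis), with Si1235 left of NC1235; circles are replicate 1, triangles replicate 2 and bars the mean of 2 libraries. The Si1235 libraries of PSIP1 lie at 62.9% and 61.5%, below both NC1235 libraries at 78.7% and 73.2%, and the arms of every other gene overlap.

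Among the writers, NSD1 carried the most H3K36me3. Its body was covered to 77.5% and 75.0% in Si1235, against 77.6% and 73.0% in NC1235. NSD2, the gene translocated in multiple myeloma, was covered to 61.5% and 53.8% in Si1235 and to 63.5% and 51.1% in NC1235. In both genes the arms overlapped and the replicates of an arm differed by more than the arm means did. SETD2 had 40.9% and 33.5% in Si1235 and 45.6% and 33.0% in NC1235, so the gene for the H3K36me3 enzyme itself was covered less than NSD1 and NSD2. ASH1L had 33.7% and 27.6% in Si1235 and 35.3% and 28.6% in NC1235. NSD3, a gene of the amplified 8p11 region in breast cancers, was the least covered writer, with 22.1% and 15.1% in Si1235 and 21.9% and 14.3% in NC1235. The differences of the 5 writers lay between -2.05 and 0.95 points, with standard errors of 3.33 to 6.97 points, and their adjusted p was 0.997 each (limma).

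The erasers spanned the whole range. KDM2A had 50.6% and 44.9% of its body under H3K36me3 peaks in Si1235, against 55.6% and 49.1% in NC1235. Its Si1235 value was lower within both replicate numbers, but the arms overlapped and the difference of -4.66 points (SE 6.25) was within the spread between libraries (limma adjusted p = 0.959). KDM4B had 12.1% and 7.24% in Si1235 and 10.8% and 4.47% in NC1235, with overlapping arms. KDM8 had 0% and 1.65% in Si1235, against 0% in each NC1235 library, under the 5% mean cover required for a test. KDM8 thus carried no H3K36me3 peak in 3 of the 4 libraries, although its start was acetylated. Of 7639 genes with at least 50% H3K27ac cover of the start window in all 4 libraries, 17.1% likewise had under 5% H3K36me3 in all 4, and of the 1793 of them within 1.5 times the length of KDM8, 9.09% did.

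The readers were PSIP1 and PHF1. PSIP1, at chr9:15464066-15510970, was covered to 62.9% and 61.5% in the Si1235 libraries, against 78.7% and 73.2% in the NC1235 libraries. Both Si1235 libraries lay below both NC1235 libraries, and the difference was -15.9 points within replicate 1 and -11.8 points within replicate 2. Pooled it was -13.8 points (SE 4.15), with an unadjusted p of 0.0126 and an adjusted p of 0.437 by limma, so PSIP1 was not called. Among all tested genes 1.87% had a more negative difference. Over the alternatives the PSIP1 difference lay between -16.6 and -9.59 points and its adjusted p between 0.0648 and 0.965. The solved background level was also lower in Si1235 than in NC1235 H3K36me3 libraries, at 1.90 and 0.788 against 2.33 and 1.65 reads per position, and its part in the PSIP1 difference was not tested. PHF1, a short gene of 6.03 kb, had 59.3% and 47.4% in Si1235 and 63.5% and 48.5% in NC1235, with overlapping arms (-2.64 points, SE 7.53, limma adjusted p = 0.9902).

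The lower PSIP1 cover lay in many places along the gene. With the body cut into 10 segments of equal length, numbered from the start, both Si1235 libraries had less cover than both NC1235 libraries in 9 segments, and the last was wholly covered in all 4. In the other 9 genes 0 to 3 segments were lower in this way, KDM2A and NSD1 having 3 each. PSIP1 was the only member whose arms lay apart over the whole body. Segments were not counted over all tested genes, so no background share stands beside these counts. Segment 3 averaged 47.7% in Si1235 and 73.4% in NC1235, and segment 8 74.5% in Si1235 and 100% in NC1235. Segment 2 averaged 93.4% in Si1235 and 100% in NC1235. The number of peaks was 17 and 15 in Si1235, against 7 and 13 in NC1235, and the widest peak measured 7.30 and 7.21 kb in Si1235 and 15.2 and 7.83 kb in NC1235. More and narrower peaks were also a trait of the whole lists, which held 74826 and 81320 H3K36me3 peaks of mean width 1879 and 1525 bp in Si1235 and 67302 and 71041 peaks of 2141 and 1655 bp in NC1235. Of the 10 regions obtained by merging the peaks of all 4 libraries over PSIP1, 8 held a peak in all 4 libraries. None was present in both libraries of one arm and absent from both of the other. Where a peak had to cover 50% of a region, 5 were kept, 2 lost and 0 gained in Si1235. Among all regions of the mark under that rule, 18.1% were kept, 3.86% lost and 5.18% gained. When peaks were joined across gaps of up to 1 kb the difference was -9.59 points.

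**Figure D2:**
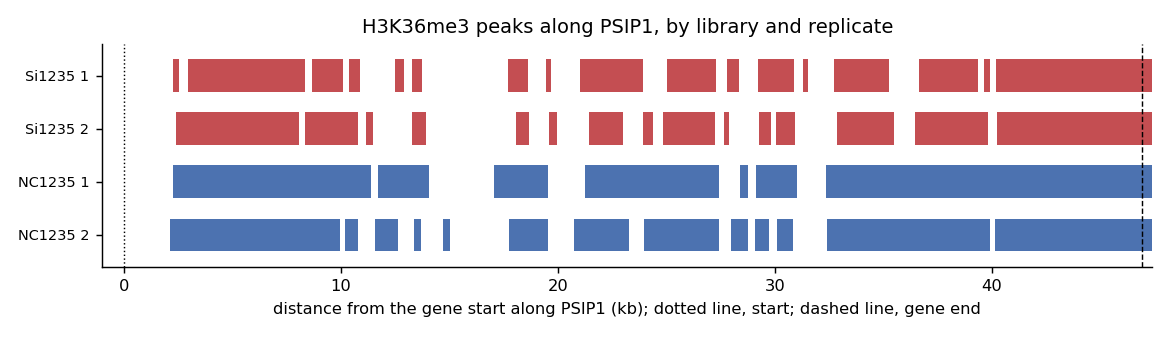
H3K36me3 peaks of each library (rows, Si1235 above NC1235) along PSIP1, by distance from the gene start in kb; each bar is a deposited peak. The Si1235 rows hold 17 and 15 peaks with gaps where the NC1235 rows, with 7 and 13 peaks, are covered, for instance beyond 30 kb.

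PSIP1 shares 2670 bp at its end with SNAPC3, a gene of the small nuclear RNA-activating complex, so peaks there belong to either. SNAPC3 had 82.4% and 77.9% in Si1235 and 89.5% and 81.5% in NC1235 (-5.40 points, SE 3.33, limma adjusted p = 0.782). The arms of SNAPC3 overlapped. PSIP1 lies 2.03 Mb from LINC01235 on chromosome 9. Other annotated genes share parts of the bodies measured: DDHD2 overlaps NSD3 by 3944 bp, LOC124902695 overlaps KDM2A by 14805 bp, ASH1L-AS1 overlaps ASH1L by 1161 bp and KIF9-AS1 overlaps SETD2 by 471 bp, and peaks there cannot be told apart between the genes.

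Along the gene bodies H3K36me3 was placed toward the end of the gene. The body was split at its midpoint. In 9 of the 9 tested members the downstream side was covered more than the upstream side in all 4 libraries. The same held for 73.1% of 6943 tested genes. All of these had a known strand except NSD3, whose start was taken from the cover of the promoter marks. The median cover of the upstream side was 27.2% over the members and 25.3% over all these genes, and of the downstream side 57.3% over the members and 55.5% over all. PHF1 had the steepest profile, with means of 15.5% upstream and 93.9% downstream, and NSD1 one of the flattest, with 73.0% and 78.5%. H3K36me3 began late in SETD2, where the first peak lay 39.5 and 40.3 kb from the start in Si1235, against 38.8 and 39.5 kb in NC1235. In NSD1 the first peak lay 3.41 and 3.46 kb from the start in Si1235 and 3.40 and 3.41 kb in NC1235. No H3K36me3 peak reached the window within 1 kb of the start in any member in any of the 4 libraries.

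**Figure D3:**
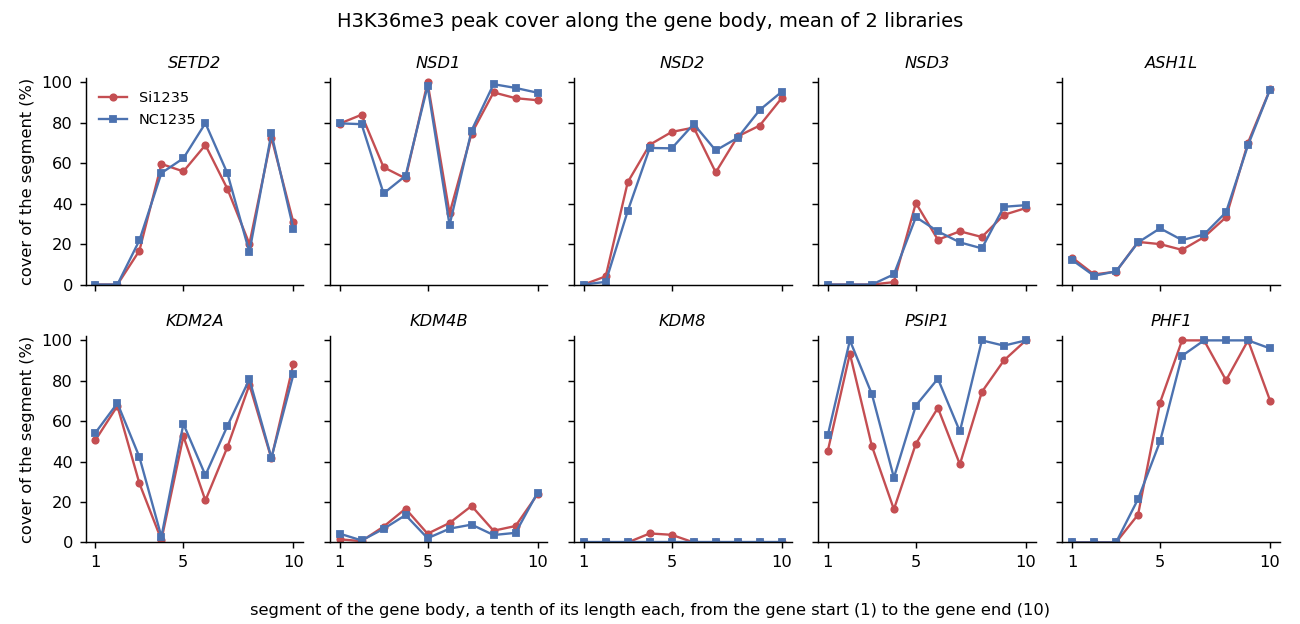
Mean H3K36me3 peak cover (y axis, percent, 2 libraries per arm) of each of 10 equal segments of the gene body from start to end (x axis), with Si1235 in red circles and NC1235 in blue squares. The PSIP1 line of Si1235 lies under that of NC1235 in 9 of 10 segments, with the libraries apart in each of the 9. The KDM2A line also lies under in 9 segments, with the libraries apart in 3 of them.

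Merging the H3K36me3 peaks of the 4 libraries gave 247 regions in the 10 genes. Of these 103 held a peak in all 4 libraries, 4 were lost (a peak in both NC1235 libraries and in neither Si1235 library) and 13 were gained (the reverse), beside 34.5% kept, 2.80% lost and 4.48% gained among all regions of the mark. NSD2 held 4 gained regions of its 21. The strongest, chr4:1895147-1896331, lay 23754 bp into the gene, and the authors' fold enrichment of its peak was 8.59 and 7.83 in the 2 Si1235 libraries. The peaks of the other gained and lost regions reached at most 5.35-fold, where the median peak of an H3K36me3 list had 5.10-fold to 5.48-fold enrichment. NSD1 held 2 gained and 2 lost, KDM4B 3 gained and 1 lost, SETD2 and ASH1L 2 gained each, and KDM2A 1 lost.

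At the gene starts, 8 of the 10 genes had at least 55.1% cover by each of the 3 promoter marks in every library. KDM4B had less, and NSD1 had 0% at its outermost start. For H2AZ, limma called none of 9 tested members (0.00% of 17362 genes higher and 0.00% lower), and 1 of 9 passed an unadjusted p under 0.05, beside 5.94% of genes. The arms did not overlap for 3 members higher and 1 lower in Si1235, beside 20.9% and 10.8% of genes and 31.7% in either direction. The median H2AZ difference was 3.60 points over the members and 1.23 over all tested genes. For H3K27ac none of 9 was called, beside 0.221% of 15413 genes higher and 0.221% lower (0.441% in either direction), and 2 of 9 passed an unadjusted p under 0.05, beside 14.0% of genes. The arms did not overlap for 1 member higher and 2 lower, beside 23.3% and 17.7% of genes and 41.0% in either direction, and the median difference was -1.45 points over the members and 0 over all. H3K9ac had 1 library per arm and no test; no member differed by 20 points or more, which 7.83% of 17822 genes did (3.10% upward and 4.73% downward).

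Of 18 merged H2AZ regions in the 10 genes, 15 were kept, 0 lost and 2 gained, beside 49.1%, 4.38% and 2.54% of all H2AZ regions. Of 30 merged H3K27ac regions 20 were kept, 2 lost and 1 gained, beside 64.8%, 5.77% and 3.92% of all. The 2 gained H2AZ regions lay in KDM2A, the 2 lost H3K27ac regions in KDM4B, and the gained H3K27ac region at the far end of NSD1, 168319 bp from its start.

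**Figure D4:**
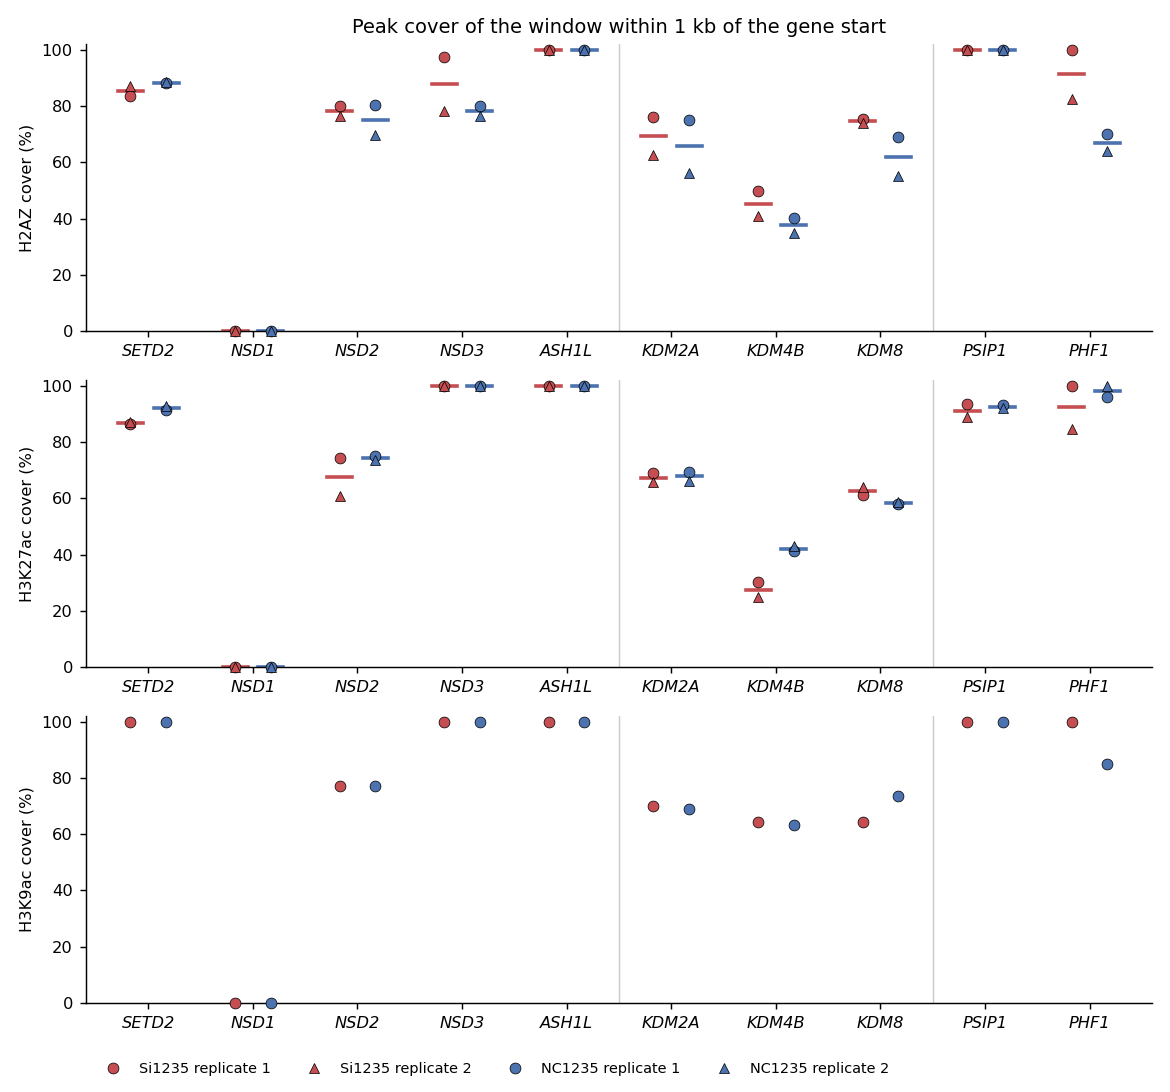
Percent of the window within 1 kb of the gene start under H2AZ, H3K27ac and H3K9ac peaks (y axes) for the 10 genes (x axis), with Si1235 left of NC1235; circles are replicate 1, triangles replicate 2 and bars the mean of 2 libraries. The arms lie apart for SETD2, KDM4B, KDM8 and PHF1 in H2AZ and for SETD2, KDM4B and KDM8 in H3K27ac, and NSD1 is at 0 throughout.

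At the starts of the writers, SETD2 had 86.4% and 87.1% H3K27ac cover in Si1235, against 91.3% and 92.7% in NC1235. Both Si1235 libraries lay below both NC1235 libraries (-5.30 points, SE 0.75, unadjusted p = 0.00701, limma adjusted p = 0.157). Its H2AZ cover lay the same way, at 83.4% and 87.1% in Si1235 and 88.1% and 88.5% in NC1235 (-3.00 points, SE 2.22, limma adjusted p = 0.902). The difference lay at the upstream edge: the H3K27ac peak began at -727 and -741 bp from the start in Si1235 and at -826 and -854 bp in NC1235, negative distances lying upstream. By the authors' fold enrichment the SETD2 start peak stood within its list above 92.4% and 89.0% of peaks in the Si1235 H3K27ac lists and above 81.8% and 81.5% in the NC1235 lists. For H2AZ the SETD2 start peak stood above 94.0% and 93.5% of peaks in the Si1235 lists. In the NC1235 lists it stood above 77.9% and 75.2%. The lists differ in length, and those of H3K27ac in scaling, so no change is read from these ranks. At the annotated SETD2 start 727 bp further in, H3K27ac cover was 100% in all 4 libraries. H2AZ cover there was 100% in each Si1235 library and 98.1% and 100% in NC1235, so the H2AZ difference changed sign (0.95 points, SE 0.81). The SETD2 window also holds the start of the antisense lncRNA KIF9-AS1, 470 bp away, and peaks carry no strand, so they belong to either gene.

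ASH1L was covered to 100% by H2AZ, H3K27ac and H3K9ac in every library, and its window also holds the start of MSTO1, 44 bp away. NSD3 was covered to 100% by H3K27ac and H3K9ac in every library, and by H2AZ to 97.4% and 78.3% in Si1235, against 79.8% and 76.5% in NC1235. Replicate 1 of Si1235 stood above the rest, and the arms overlapped. LETM2 starts 160 bp from NSD3. NSD2 had 80.0% and 76.3% H2AZ cover in Si1235 and 80.2% and 69.8% in NC1235. Its H3K27ac cover was 74.2% and 60.7% in Si1235 and 75.0% and 73.7% in NC1235, with the low value in 1 library. In all 4 libraries the H2AZ and H3K27ac peaks of NSD2 lay on either side of the start and left the start itself uncovered, so the CG-rich promoter bases were covered to 4.08% on average by H2AZ and 0% by H3K27ac.

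NSD1 is the gene for which the choice of start mattered most. At its outermost annotated start the H2AZ, H3K27ac and H3K9ac cover was 0% in all libraries. A window at the inner start, 2338 bp downstream, was taken after seeing the data, by the rule of most H3K9ac cover among the annotated starts, applied to all genes. There H2AZ cover was 100% in all 4 libraries, and H3K9ac cover was 100% in Si1235 and 99.7% in NC1235. The high H3K9ac cover follows from the rule that chose the start. H3K27ac cover was 70.0% and 69.2% in Si1235, against 93.8% and 90.4% in NC1235, and the arms did not overlap. With starts chosen by this rule, the H3K27ac arms lay apart and lower in Si1235 for 17.5% of 15837 tested genes. They lay apart and higher for 23.1%. The difference was -22.5 points (SE 2.15, unadjusted p = 0.0024), and it did not pass over all genes (limma adjusted p = 0.100). The peak maps show where it lay: the H3K27ac peak began 1938 and 1954 bp after the outermost start in Si1235 and 1462 and 1530 bp after it in NC1235. Its downstream edge lay at 3766 and 3601 bp in Si1235 and at 3563 and 3496 bp in NC1235. The upstream edge of H2AZ lay at 1028 and 1075 bp in Si1235 and at 1091 and 1162 bp in NC1235, further upstream than the H3K27ac edge in every library. The scaled NC1235 H3K27ac pileups coincide with this difference, and their part in it was not tested.

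Among the erasers, KDM4B, the H3K9 and H3K36 demethylase, had the lowest H3K27ac cover at a marked start. Its H3K27ac cover was 30.2% and 24.9% in Si1235, against 41.3% and 43.0% in NC1235. The arms did not overlap (-14.6 points, SE 2.497, unadjusted p = 0.0116, limma adjusted p = 0.194). Most of the difference lay in a peak upstream of the start, chr19:4968274-4968592, which was present in both NC1235 libraries at 5.67-fold and 5.93-fold enrichment and in neither Si1235 library. The peak downstream of the start was present in all 4 libraries. A further region 3337 bp into the gene was lost in the same way, with 5.53-fold and 4.93-fold peaks in the NC1235 libraries. All of these peaks were weak: the strongest peak in the KDM4B window exceeded only 28.0% and 25.8% of the peaks in the Si1235 lists and 21.5% and 25.0% in the NC1235 lists. H2AZ lay the other way at this start, with 49.7% and 40.9% in Si1235 and 40.4% and 35.0% in NC1235 (7.60 points, SE 4.92, limma adjusted p = 0.902), and 3.20 points without Si1235 replicate 1. H3K9ac cover was 64.5% in Si1235 and 63.3% in NC1235, and the upstream area lost by H3K27ac kept its H2AZ peak in all 4 libraries.

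**Figure D5:**
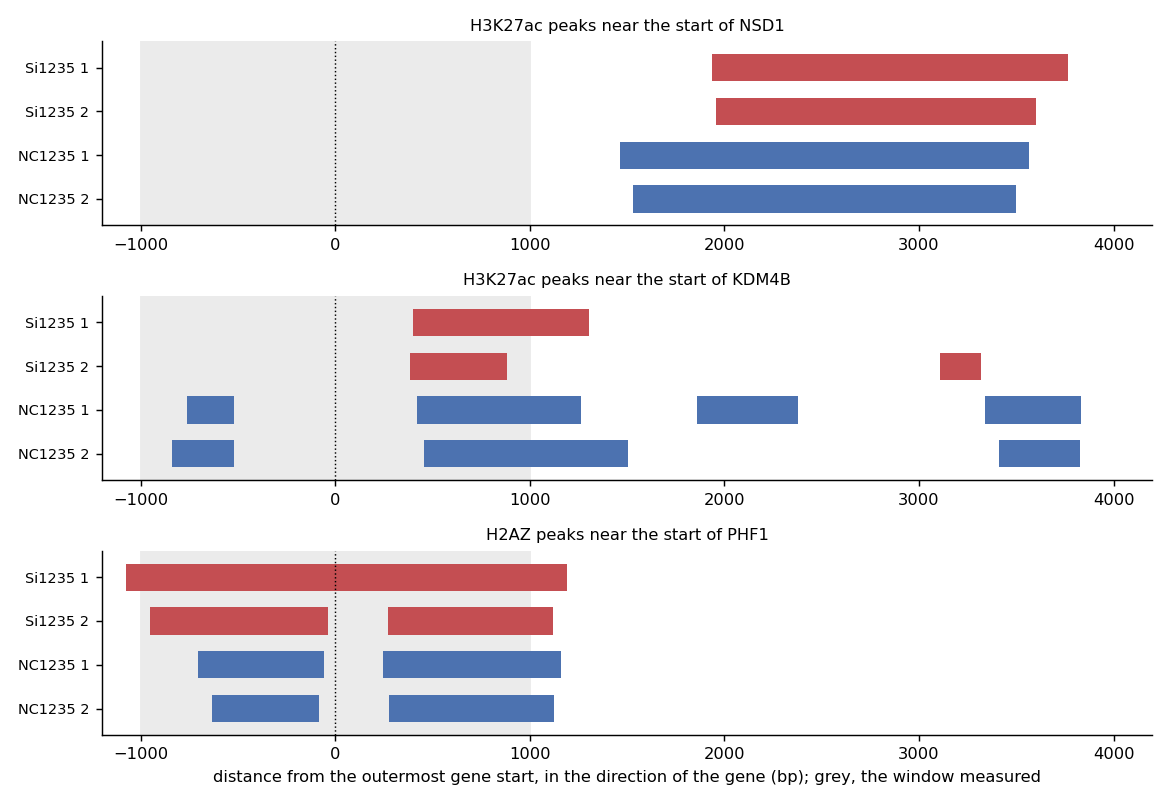
Deposited peaks of each library (rows, Si1235 above NC1235) by distance in bp from the outermost gene start for H3K27ac at NSD1 and KDM4B and H2AZ at PHF1; the grey area is the window within 1 kb. The NSD1 peak begins at 1938 and 1954 bp in Si1235 and at 1462 and 1530 bp in NC1235, the KDM4B peak upstream of the start is present in both NC1235 rows and in neither Si1235 row, and the PHF1 peaks reach further upstream in Si1235.

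KDM2A, whose CXXC domain binds CG-rich unmethylated DNA, differed little in peak cover at its outermost start. H3K27ac cover there was 69.0% and 65.7% in Si1235 and 69.5% and 66.3% in NC1235, and H3K9ac cover was 70.2% in Si1235 and 69.1% in NC1235. H2AZ cover was 76.2% and 62.5% in Si1235 and 75.1% and 56.4% in NC1235, with overlapping arms. By fold enrichment the strongest H2AZ peak there stood above 92.3% and 83.8% of peaks in the Si1235 lists. In the NC1235 lists it stood above 73.1% and 69.8%. For H3K27ac these ranks were 96.1% and 97.3% in Si1235 and 93.2% and 88.6% in NC1235. As for SETD2, no change is read from these ranks. The internal start 120751 bp downstream, from which a shorter KDM2A transcript is annotated, was also marked. There H3K27ac cover was 73.9% and 52.6% in Si1235 and 82.5% and 72.4% in NC1235, and H3K9ac cover was 100% in Si1235 and 81.3% in NC1235. The internal start was the KDM2A start with most H3K9ac cover, so its high H3K9ac cover follows from the choice. H2AZ cover at that start was 12.4% and 18.1% in Si1235, against 0% in each NC1235 library. It was the only H2AZ difference of KDM2A with arms apart (15.3 points, SE 4.91, limma adjusted p = 0.812), and the window was again chosen after seeing the data. With starts chosen in this way, the H2AZ arms lay apart and higher in Si1235 for 21.1% of 17765 tested genes, and lower for 10.6%. The 2 gained H2AZ regions of KDM2A lay at chr11:67240107-67240506, with peaks of 5.07-fold and 4.22-fold enrichment in the Si1235 libraries, and 1614 bp into the gene, at 4.94-fold and 3.75-fold. The start of the lncRNA LOC107984341 lies 915 bp from the outermost KDM2A start and shares its window.

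KDM8 had H2AZ cover of 75.4% and 73.8% in Si1235, against 69.0% and 55.1% in NC1235 (12.6 points, SE 6.50, limma adjusted p = 0.902). H3K27ac cover was 61.2% and 64.1% in Si1235 and 57.9% and 58.6% in NC1235 (4.43 points, SE 1.86, limma adjusted p = 0.495). In both marks the arms did not overlap, with Si1235 higher. Without NC1235 replicate 2 the H2AZ difference was 5.58 points, and without NC1235 replicate 1 it was 19.5 points. H3K9ac lay the other way, at 64.3% in Si1235 and 73.6% in NC1235. The KDM8 start peak stood, by the authors' fold enrichment, above 89.1% and 92.1% of peaks in the Si1235 H3K27ac lists and 95.6% and 98.0% in the NC1235 lists. As for SETD2, no change is read from these ranks.

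Of the readers, PSIP1 had no such difference at its start, where its H3K36me3 was also absent. H2AZ and H3K9ac cover was 100% in all libraries, and H3K27ac cover was 93.3% and 88.9% in Si1235 and 93.0% and 92.1% in NC1235. The H3K27ac difference of -1.45 points (SE 1.92) had a limma adjusted p of 0.858. PHF1 had the largest H2AZ difference of the family at the outermost starts, with 100% and 82.5% cover in Si1235, against 70.2% and 63.9% in NC1235. The arms did not overlap (24.3 points, SE 7.73, unadjusted p = 0.0435, limma adjusted p = 0.826). The H2AZ peaks of PHF1 began at -1075 and -955 bp from the start in Si1235 and at -704 and -636 bp in NC1235, and in replicate 1 of Si1235 a single peak ran across the gap around the start that the other 3 libraries had. Without that library the difference was 15.5 points. At the annotated PHF1 start 602 bp further in, H2AZ cover was 79.4% and 60.5% in Si1235 and 62.8% and 58.1% in NC1235, with overlapping arms (9.53 points, SE 8.26, limma adjusted p = 0.899). At the outermost PHF1 start H3K27ac cover was 100% and 84.8% in Si1235 and 96.1% and 100% in NC1235. At the inner start it was 80.3% and 69.9% in Si1235 and 92.0% and 82.0% in NC1235, with arms apart (-11.9 points, SE 6.24, limma adjusted p = 0.590). Over all genes tested for H3K27ac at starts chosen by H3K9ac cover, 17.5% lay apart and lower in Si1235 and 23.1% higher. At the outermost start H3K9ac cover was 100% in Si1235 and 85.0% in NC1235.

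A wider list of 36 other enzymes, readers and elongation factors around H3K36 showed no call either. Of its genes 28, 31 and 31 were tested for H3K36me3, H2AZ and H3K27ac, and limma called 0 for each mark, with 0, 2 and 1 at an unadjusted p under 0.05, beside 7.94%, 5.94% and 14.0% of all genes. For H3K36me3, 5 genes lay higher and 2 lower in Si1235 with arms apart, beside 20.3% and 13.7% of all genes. For H2AZ the counts were 5 and 1, beside 20.9% and 10.8%, and for H3K27ac 3 and 4, beside 23.3% and 17.7%. The largest for H3K36me3 were PWWP2B, a PWWP-domain reader, with 43.9% and 22.8% in Si1235 and 21.4% and 16.2% in NC1235, and HDGF with a difference of 4.39 points. On the lower side were MSL3, a chromodomain subunit of the MSL acetyltransferase complex, with -7.57 points, and the elongation factor IWS1 with -2.003 points. For H2AZ the largest were BRD1, with 73.9% and 71.6% in Si1235 and 51.8% and 40.5% in NC1235, and PRDM9 with 21.1 points, and the 1 gene lower was MSH6 with -2.05 points. For H3K27ac they were PRDM9 with 18.5 points and PWWP2A with 7.08 points, and on the lower side PWWP3A with -9.80 points and KDM4D with -8.90 points. PRDM9, the meiotic H3K36 and H3K4 methyltransferase, lay higher in Si1235 in both H2AZ and H3K27ac with arms apart, and passed neither test (limma adjusted p = 0.844 and 0.570).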

How the data were processed

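ChIP-seq of HCC1954 cells gave 15 peak lists, each from a single library; the 2 inputs were not analysed here. Per the submitters' processing notes, the tools were Bowtie2 2.2.9, MACS2, HTSeq 2.0.3 and DESeq2 1.22.2, with build hg38; settings and the peak-calling control are not given in the sources used here. In each list the authors deposited a fold enrichment, a linear ratio over local background, and −log10 values of each peak's p-value and q-value; the lowest deposited −log10 q was 2.00. The fold enrichment is the authors' own and served only to describe and rank peaks within a list. The deposited peak positions are the values analysed. The deposited peak names of H3K9ac carry another residue, and the labels were followed.

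Genes on chromosomes 1 to 22 and X came from RefSeq GRCh38.p14. The start was the outermost gene end by strand (27197 genes) or, for 10954 genes without strand, NSD3 among them, the end with more cover of the other promoter marks. Cover was computed for the gene body (protein-coding genes of at least 2 kb) or the window within 1 kb of the start. Genes reaching a mean cover of 5% were tested with limma 3.58.1 (R 4.3.3), with trend and no block, on differences in percentage points, Benjamini-Hochberg adjusted over all genes of a mark, threshold 0.05. The fit was run on simulated data with unbounded normal errors and large shifts, which does not test it on bounded percentages or small differences. Weak peaks (1500 per list) were solved for a whole pileup within 0.002. Regions merged from the 4 libraries were kept, lost or gained by an overlap of at least 1 bp.

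The members and lists were chosen with earlier results of these data known. Named are all 10 members, and of a wider list of 36 genes those called and, per mark, the 2 largest positive and 2 largest negative differences among those with arms apart; genes starting in a member's window are named as sharing it. Alternatives were no filter, equal peak numbers, a −log10 q of at least 5, a replicate block, leaving out each library, no trend, a window of 2.5 kb, joined peaks and a 50% region overlap. An inner annotated start and quantile normalization were added after seeing the data. Python 3.11.15 was used for cover and figures.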

Additional observations from a re-analysis of the deposited data

Results flagged for a closer look

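The ChIRP library, a capture of chromatin with probes whose target RNA the labels do not name, takes no part in the comparisons above and exists for NC1235 alone. It had 53 peaks within the 10 genes, flagged as a signal in data outside the main measurement. KDM4B held 14, ASH1L 10, NSD1 and KDM2A 7 each, SETD2 5, NSD2 3, NSD3, PSIP1 and PHF1 2 each, and KDM8 1. The median was 4.33 peaks per 100 kb over the members and 4.03 over 18727 protein-coding genes. PHF1, with 2 peaks in 6.03 kb, had 33.2 per 100 kb, and KDM4B 7.59. Of the 10 start windows, those of NSD1 and NSD3 held 1 ChIRP peak each.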

How the results depend on the processing

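No member was called under any alternative run, and under settings other than leaving out a library 165 member differences kept their direction, 1 became 0 (SETD2 H3K27ac at the inner start), 26 were 0 in both, 6 left 0 (between -2.37 for ASH1L H2AZ and 6.03 for PSIP1 H2AZ) and 9 changed direction: SETD2 H3K36me3 0.28 with peaks joined; NSD1 H3K36me3 -0.14 with quantile normalization; NSD2 H3K36me3 -0.045 with equal peak numbers, -0.76 joined and -1.29 with quantile normalization; NSD3 H3K36me3 -0.32 with equal peak numbers and -0.88 with quantile normalization; SETD2 H2AZ 0.95 at the inner start; and KDM4B H2AZ -0.12 at 2.5 kb. Of all genes, H3K36me3 calls were 1 higher and 2 lower without the filter and 65 and 28 with quantile normalization, H2AZ calls 3 and 6 without the filter, and H3K27ac calls 60 and 52 without the filter, 114 and 87 without trend, 1 and 3 at 2.5 kb, 51 and 56 at the inner start and 26 and 22 with quantile normalization. At a 50% overlap 52 of the 247 H3K36me3 regions of members were kept, 7 lost and 17 gained. Among all regions of the mark 18.1% were kept, 3.86% lost and 5.18% gained at that overlap. The H3K9ac difference at 2.5 kb was -16.6 points for PSIP1, -10.6 for NSD3 and 19.4 for PHF1. The causes of these changes were not tested.

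Leaving out 1 library gave 14 to 106 genes higher and 4 to 23 lower for H3K36me3, 4 to 308 and 3 to 255 for H3K27ac, and 0 for H2AZ. The H3K36me3 counts were 106 and 4 without Si1235 replicate 2, 32 and 18 without Si1235 replicate 1, 105 and 10 without NC1235 replicate 1 and 14 and 23 without NC1235 replicate 2; the H3K27ac counts were 9 and 255, and 4 and 122, without Si1235 replicates 1 and 2, and 308 and 8, and 221 and 3, without NC1235 replicates 1 and 2. Of member differences, 71 kept their direction, 16 were 0 throughout and 21 changed direction; the ranges of the genes with a change were, for H3K36me3, -8.34 to 4.25 points (SETD2), -1.35 to 3.24 (NSD1), -5.81 to 6.60 (NSD2), -3.32 to 4.26 (NSD3), -4.66 to 2.03 (ASH1L), -1.17 to 5.19 (KDM4B) and -10.2 to 4.88 (PHF1); for H2AZ, -2.05 to 8.35 (NSD2) and -5.75 to 12.95 (KDM2A); and for H3K27ac, -2.15 to 1.15 (KDM2A), -3.68 to 0.78 (PSIP1) and -13.3 to 1.95 (PHF1). Without a change of direction, PSIP1 H3K36me3 lay between -16.6 and -11.1 points, KDM2A H3K36me3 between -7.90 and -1.42, KDM8 H2AZ between 5.58 and 19.5, KDM4B H2AZ between 3.20 and 12, NSD3 H2AZ between 0.175 and 19.3, PHF1 H2AZ between 15.5 and 33.0, SETD2 H2AZ between -4.85 and -1.15, NSD2 H3K27ac between -13.7 and -0.175 and KDM8 H3K27ac between 2.98 and 5.88. With the replicate block H3K27ac calls were 0 higher and 0 lower, against 34 and 34 without it, and PSIP1 H3K36me3 had an adjusted p of 0.0974, against 0.437. Same-numbered libraries deviated together with correlations of 0.296 (H3K36me3), 0.180 (H2AZ) and 0.0602 (H3K27ac) over 2 pairs, too few to decide from the data whether the numbers pair the libraries, and the labels do not say so. The number of libraries and the unknown depth limit the precision.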
